A study of Rattus norvegicus with 24 samples.

Results

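The line by overload interaction asks, gene by gene, whether mechanical overload moved expression by a different amount in 2 rat lines. It was computed as the response of LRT muscle (overload minus control) minus the response of HRT muscle, on the log2 scale. A negative value is a response that was lower in LRT, either a smaller rise or a larger fall, and a positive value is a response that was higher in LRT. All 24 libraries of the series entered, 6 in each of 4 groups, namely control and overloaded muscle of HRT and control and overloaded muscle of LRT. Of 31998 genes in the deposited table, 16661 had enough reads to be tested.

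The rats were females aged 14 months from generation 19 of 2 selectively bred lines, whose running capacity gains little (LRT, low responders) or much (HRT, high responders) from endurance training. In the overloaded groups the gastrocnemius and soleus had been cut out on one side, which leaves the plantaris to bear their load, and the plantaris was collected 14 days later. The labels do not say whether control muscle came from other animals or from the unoperated leg, nor that equal replicate numbers mark 1 animal. The p-values therefore measure the spread between these samples. If control and overloaded muscle came from the same animals, the edgeR fit used below leaves that pairing out.

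Overload of this kind is a standard model of muscle growth. It is known to activate protein synthesis and ribosome production in fibres, to recruit satellite cells (the muscle's stem cells), and to bring in immune and connective tissue cells that rebuild the matrix. Bulk RNA mixes all of these cells, so fewer cells of a type and less RNA per cell cannot be told apart in any value below. The files give Ensembl gene IDs without names, and 0 IDs matched the name table used here. Pathway lists, cell type markers and markers of the plantaris itself were therefore not checked, and at most 2 IDs per direction are printed. What the genes do is not stated for the same reason.

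Only a handful of genes responded differently in the 2 lines past the threshold, and in each of them HRT muscle moved while LRT muscle moved less or the other way. With edgeR's quasi-likelihood test and Benjamini-Hochberg adjustment over all tested genes, 8 genes passed an adjusted p of 0.05, which is 0.048% of those tested. The response was lower in LRT for 4 of them and higher in LRT for the other 4. Overload by itself changed 63.2% of tested genes in HRT and 57.2% in LRT by the same test.

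ENSRNOG00000015225 had the smallest p of all genes. Its level in HRT control muscle ran from 10.8 to 12.8 CPM (reads scaled to a common library total, here after adjustment for composition) with a median of 10.9. In HRT overload it ran from 17.2 to 23.2 CPM, median 19.97. In LRT control it ran from 13.6 to 18.9 CPM, median 16.5, and in LRT overload from 13.7 to 16.2 CPM, median 14.995. Every overloaded HRT library lay above every other library of HRT and above every overloaded LRT library, while the 2 LRT groups overlapped. The gene rose in HRT by 1.75-fold (log2 fold change 0.81 ± 0.0803 SE, n = 6 against 6, edgeR adjusted p = 1.22e-08). In LRT it did not pass, at −0.14 ± 0.0798 (edgeR adjusted p = 0.154). The difference between the responses was −0.94 ± 0.113 (edgeR adjusted p = 0.000234). The lines also stood in opposite order in the 2 states, LRT above HRT in control muscle by 0.53 and below it after overload by a log2 difference of −0.41 (edgeR adjusted p = 0.00125 and 0.0071). Those 2 comparisons called 1.97% and 3.09% of tested genes.

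ENSRNOG00000013018 had the widest difference among the 8. It ran from 9.79 to 16.4 CPM in HRT control (median 13.1) and from 38.1 to 53.8 CPM in HRT overload (median 42.3). In LRT it ran from 17.5 to 40.3 CPM in control (median 21.8) and from 20.3 to 38.1 CPM in overload (median 31.3). The HRT groups were far apart and the LRT groups overlapped almost wholly. Replicates 3 and 4 of LRT control, at 40.3 and 30.6 CPM, were well above the other 4, which reached 24.9 CPM. The highest LRT overload library was only just below the lowest HRT overload library. In HRT the gene rose 3.31-fold, or 1.73 ± 0.194 as a log2 fold change (edgeR adjusted p = 8.61e-08). Its LRT value of 0.27 ± 0.188 did not pass (edgeR adjusted p = 0.228). The difference was −1.46 ± 0.268 (edgeR adjusted p = 0.046).

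ENSRNOG00000001544 showed the reverse pattern at a smaller scale. It ran from 20.5 to 27.2 CPM in HRT control (median 23.7) and from 14.4 to 18.2 CPM in HRT overload (median 17.6). In LRT it ran from 15.7 to 20.2 CPM in control (median 18.3) and from 18.2 to 21.6 CPM in overload (median 18.8). The HRT groups did not overlap, with overload below control, and the LRT groups did overlap. In HRT the gene fell by 0.49 as a log2 fold change (SE 0.0784, edgeR adjusted p = 9.14e-06), and in LRT it stood at 0.12 ± 0.0787 and did not pass (edgeR adjusted p = 0.218). The difference was 0.61 ± 0.111 (edgeR adjusted p = 0.046).

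ENSRNOG00000027061 changed in opposite directions in the lines. It ran from 3.30 to 4.96 CPM in HRT control (median 3.52) and from 1.90 to 2.62 CPM in HRT overload (median 2.17). In LRT it ran from 1.19 to 2.43 CPM in control (median 2.27) and from 2.02 to 4.04 CPM in overload (median 2.80). LRT control muscle was thus near the level of HRT overload. The HRT groups did not overlap, and the LRT groups did. The lowest LRT control value, 1.19 CPM in replicate 3, was far below the next, 2.11 CPM in replicate 6. In HRT the gene fell by 0.81 as a log2 fold change (SE 0.163, edgeR adjusted p = 0.000153), and in LRT it rose by 0.46 (SE 0.167, edgeR adjusted p = 0.0213). The difference was 1.27 ± 0.233 (edgeR adjusted p = 0.046). Without LRT control replicate 3 it was 1.15 (edgeR adjusted p = 0.0342), the smallest value over all settings. The rise in LRT thus leans in part on that library. This gene had the fewest reads per library in 1 group among the 8, 34 to 72 in LRT control.

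**Figure D1:**
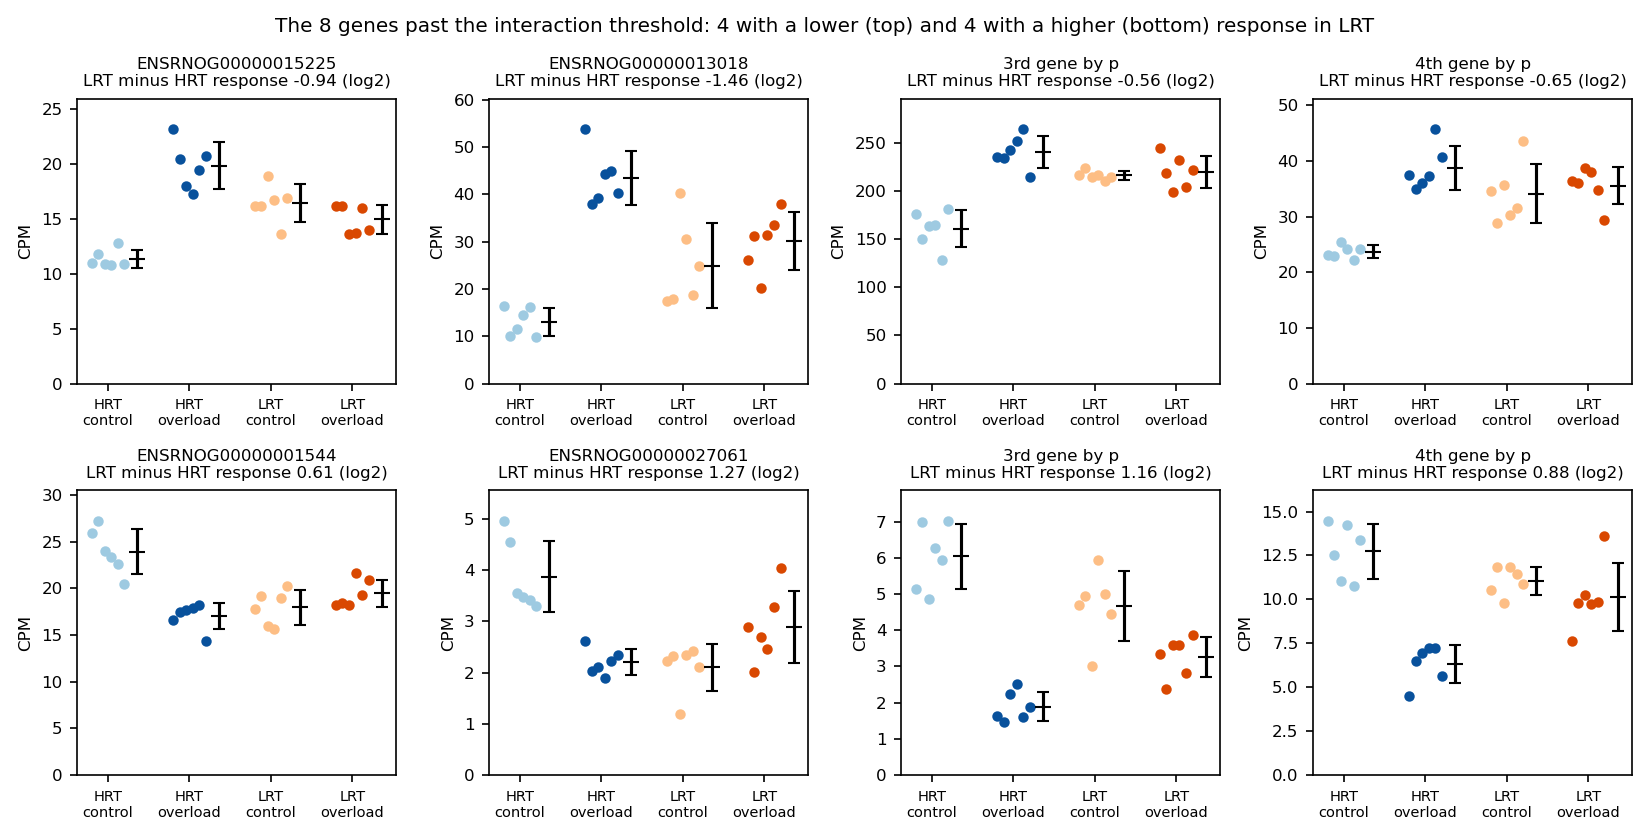
Level of each of the 8 genes (vertical axis, CPM, from 0) in every library of the 4 groups, with the mean and SD (n = 6) beside each group. The upper 4 genes were higher after overload in HRT and about level in LRT. In the lower 4 genes HRT overload was below HRT control.

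Of the other 4 genes, 3 changed in HRT without passing in LRT, and 1 fell in both lines. The third gene with a lower response in LRT was also the most abundant of the 8: it averaged 161 ± 19.3 CPM (SD, n = 6) in HRT control and 241 ± 16.8 in HRT overload, and 217 ± 4.43 and 220 ± 16.9 in the LRT groups (difference −0.56 ± 0.105 SE). The fourth averaged 23.7 ± 1.18 and 38.7 ± 3.94 CPM in the HRT groups and 34.1 ± 5.3 and 35.6 ± 3.33 in the LRT groups (difference −0.65 ± 0.123). Both rose in HRT (edgeR adjusted p = 4.62e-07 and 2.42e-07) and did not pass in LRT (edgeR adjusted p = 0.794 and 0.565). Of the genes with a higher response in LRT, the third averaged 6.04 ± 0.906 and 1.89 ± 0.406 CPM in HRT and 4.67 ± 0.964 and 3.27 ± 0.558 in LRT (difference 1.16 ± 0.22). It fell in both lines, to 0.314 of control in HRT and to 0.699 in LRT (edgeR adjusted p = 5.66e-09 and 0.00631). The fourth averaged 12.7 ± 1.57 and 6.34 ± 1.08 CPM in HRT and 11.1 ± 0.818 and 10.2 ± 1.94 in LRT (difference 0.88 ± 0.169). It fell in HRT (edgeR adjusted p = 1.65e-07) and did not pass in LRT (edgeR adjusted p = 0.391).

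Described together, 6 of the 8 genes changed in HRT and not in LRT, and 2 changed in both lines. Of all tested genes 15% and 48.2% did so. Library by library, with each overloaded library set against the control mean of its own line, the 6 HRT and 6 LRT responses did not overlap for any of the 8. Such a gap was found for 4.41% of tested genes, 427 with LRT below and 307 with LRT above. The line difference in control muscle passed the threshold for 6 of the 8 and that after overload for 3, and in all 8 the order of the line means turned over between the states. For 7 of the 8 the LRT control mean lay between the HRT control and HRT overload means, and for ENSRNOG00000027061 it lay just beyond HRT overload. Over all tested genes the order of the lines turned for 43.1%, and the LRT control mean lay between the HRT means for 36.6%. The interaction equals the line difference after overload minus that in control, so choosing genes by it favours turned orders, and these counts describe the 8 genes without testing anything further.

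RNA integrity differed between the groups as well. The RNA integrity number (RIN) averaged 8.27 ± 0.216 (SD, n = 6) in control and 8.97 ± 0.327 in overloaded muscle of HRT. In LRT it averaged 8.28 ± 0.147 in control and 8.67 ± 0.258 in overloaded muscle. With RIN as a covariate 2 genes passed, of which ENSRNOG00000015225 was the only one among the 8. Overload then changed 8712 genes in HRT and 9130 in LRT, against 10523 and 9524 without RIN, so the order of these counts turned. In HRT, RIN ran from 8 to 8.6 in control and from 8.6 to 9.4 after overload, so the ranges only met. In LRT they overlapped, at 8.1 to 8.5 and 8.2 to 8.9. RIN and overload can thus hardly be told apart in HRT, and the covariate bears on that line more. The cause of the turn was not tested. The response was larger in size in HRT for 64.3% of tested genes with RIN and for 61.1% without it. Library totals ran from 26997324 to 34255103 counts.

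How many genes passed depended on single libraries. ENSRNOG00000015225 passed in all 36 alternative settings, at −0.995 to −0.892 on the log2 scale, with edgeR, DESeq2 or limma adjusted p between 8.52e-11 and 0.0182. ENSRNOG00000001544 and ENSRNOG00000013018 passed in 11 of the 36 and ENSRNOG00000027061 in 12, while the remaining 2 genes with a lower response in LRT passed in 10 and 8 and the remaining 2 with a higher response in 9 each. The sign of the difference held for all 8 genes in all 36 settings. The differences ran from 0.56 to 0.65 for ENSRNOG00000001544, from −1.54 to −1.27 for ENSRNOG00000013018 and from 1.15 to 1.36 for ENSRNOG00000027061, and their adjusted p reached 0.15, 0.158 and 0.15. The adjusted p of 7 of the 8 genes was 0.046, a tie made by the Benjamini-Hochberg adjustment, and that of the next gene was 0.0553. The unadjusted edgeR p of these 7 ran from 1.25e-05 to 2.21e-05, and that of the next gene was 3.5e-05. The threshold thus fell between genes whose p differed little.

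Leaving out 1 library at a time gave 1 to 25 genes. Only ENSRNOG00000015225 was left in 14 of the 24 fits: without HRT overload replicate 1, 2 or 5, HRT control replicate 1, 3, 4 or 5, LRT overload replicate 3, 4, 5 or 6, or LRT control replicate 1, 4 or 6. It was joined by 1 more gene without HRT overload replicate 6, HRT control replicate 2 or LRT overload replicate 1. There were 5 genes without HRT control replicate 6 and 6 without LRT control replicate 3 or 5. The count rose to 16 without HRT overload replicate 3, 25 without HRT overload replicate 4, 19 without LRT overload replicate 2 and 17 without LRT control replicate 2. All 8 genes were among those called in each of these last 4 fits. The DESeq2 Wald test called 137 genes, 0.822% of those tested and again including all 8, and limma-voom called 2.

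**Figure D2:**
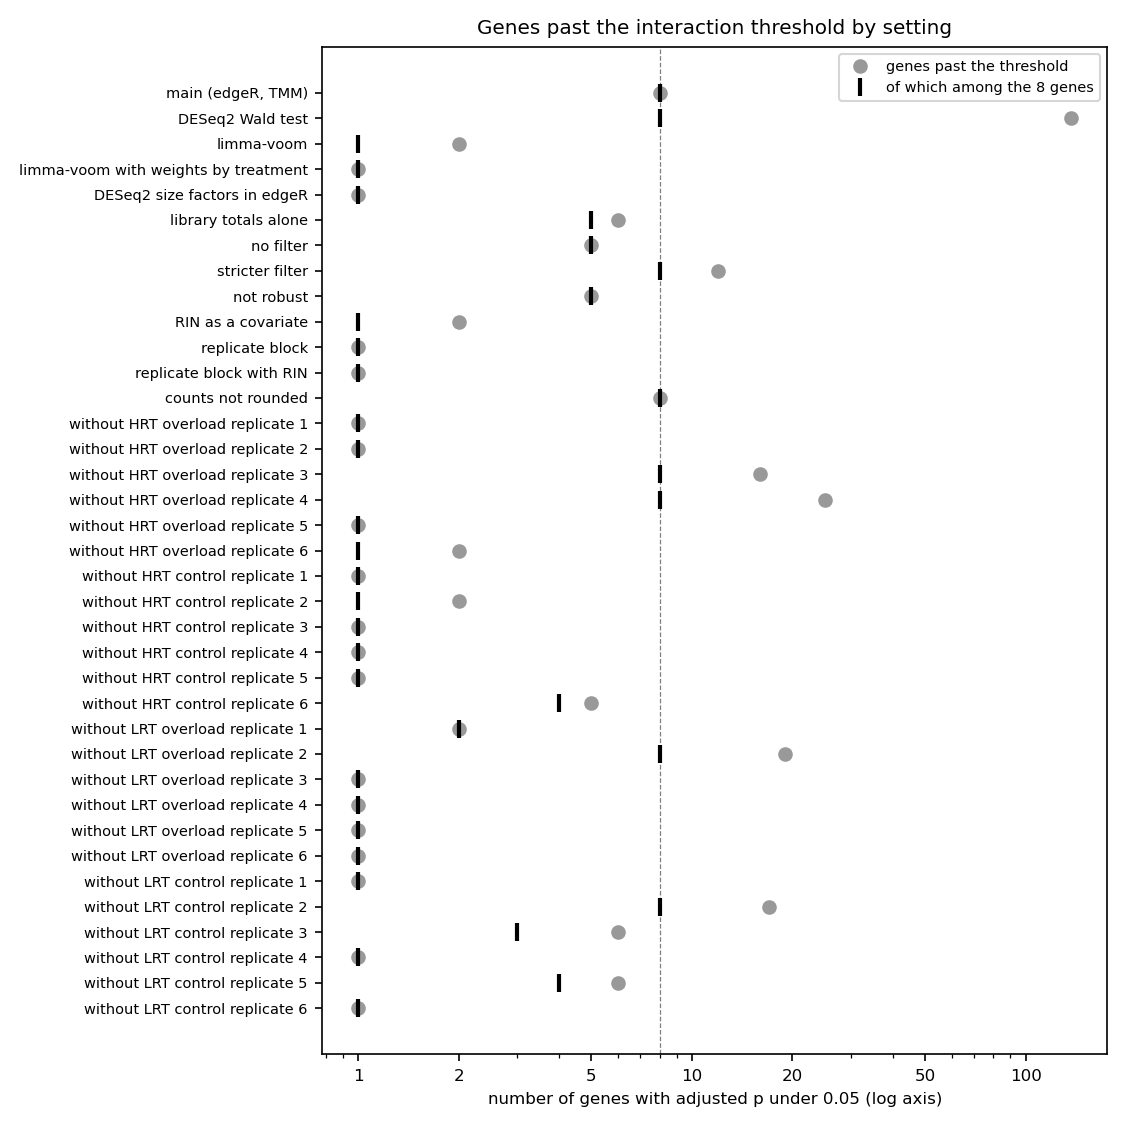
Number of genes with an adjusted p under 0.05 (horizontal, log axis) in the main fit and 36 alternative settings (rows). Grey circles give all genes past the threshold and black bars those among the 8. The count runs from 1 to 137, and 1 gene is the most frequent outcome.

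The larger set of weaker signals was described in the same way. At an adjusted p under 0.10 there were 54 genes (0.324%), 33 lower and 21 higher in LRT. The response was larger in size in HRT for 44 of these 54 (81.5%, against 61.1% of all tested genes). Of the 54, 23 changed by overload in HRT alone (42.6%, against 15% of all tested genes). The shares changed in LRT alone (5 genes, 9.26%) and in both lines (26 genes, 48.1%) were near those of all tested genes, 9% and 48.2%. By the sign of the fitted responses, 21 of the 54 were up in both lines and less so in LRT (38.9%, against 27.6% of all tested genes). A further 12 were up in HRT and down in LRT (22.2% against 7.23%), and 9 were down in HRT and up in LRT (16.7% against 7.54%). Down in both and less so in LRT were 10 (18.5%), a smaller share than the 25.6% of all tested genes. Up in both and more so in LRT were 2 (3.7% against 13.4%), and down in both and more so in LRT were 0 (against 18.6%). Choosing genes by the interaction favours unlike responses, those of opposite sign among them. These shares describe the 54 genes without testing anything further. The 137 genes of DESeq2 include all of these 54 and come from the same counts, so they are not a second, separate set. Of the 137, 44 were up in both lines and less so in LRT, and 29 were down in both and less so in LRT. A further 26 were up in HRT and down in LRT and 29 the reverse, while 8 were up more in LRT and 1 was down more.

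At an unadjusted p under 0.05 there were 2265 genes (13.6%), of which 1300 were lower in LRT (7.8% of tested genes) and 965 were higher (5.79%). Thus 57.4% of them were lower. Scaling by library totals alone gave 1538 lower and 650 higher, or 70.3% lower. Without HRT overload replicate 6 the balance turned, with 858 lower and 1108 higher (43.6% lower), and with no filter on low counts it was 1286 lower and 1375 higher (48.3% lower). The response was larger in size in HRT for 71.3% of these genes and for 61.1% of all tested genes. Fits that leave out 1 library put this last share at 58 to 64.8%, scaling by totals put it at 64.6%, and no filter on low counts put it at 56%. The median size of the response over all tested genes was 0.41 in HRT and 0.36 in LRT on the log2 scale.

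**Figure D3:**
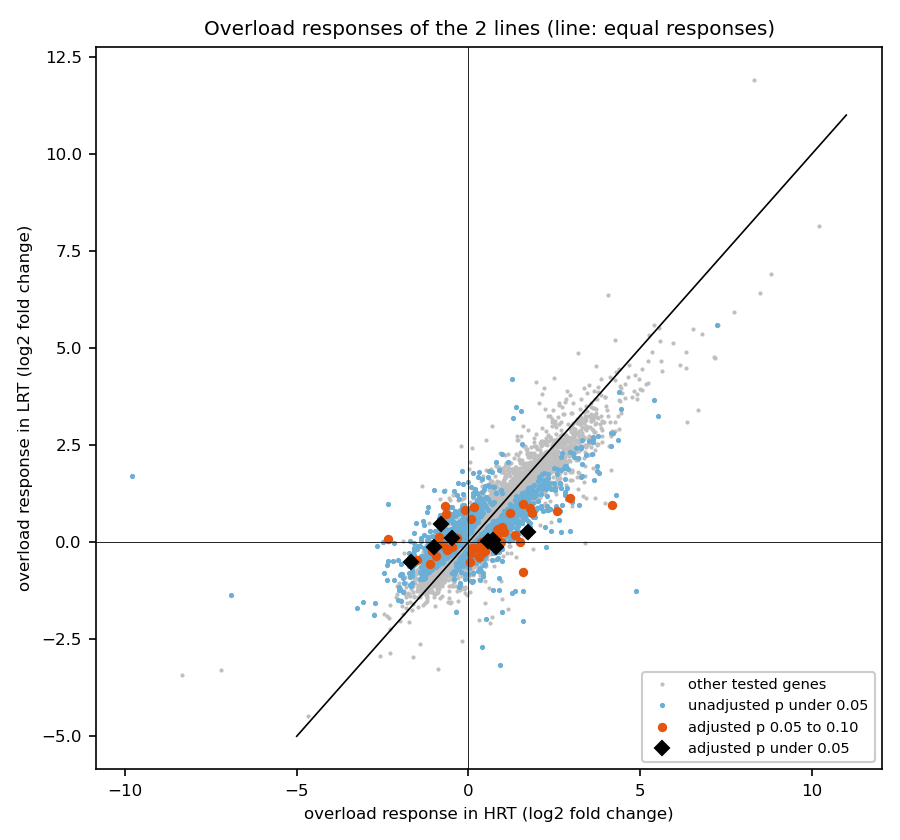
Overload response in LRT (vertical, log2 fold change) against that in HRT (horizontal, log2 fold change) for the 16661 tested genes, with a line of equal responses. Black diamonds mark the 8 genes and orange circles the rest of the 54. The 8 genes lie close to the horizontal axis, between −1.67 and 1.73 in HRT and between −0.52 and 0.46 in LRT.

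The interaction was related to how strongly and in which direction a gene responded. Genes were placed by the mean response of both lines, a measure that weights the lines equally and favours neither direction of the interaction when both lines spread alike. HRT overload spread more than LRT overload for 62.8% of genes with a mean of at least 1 on the log2 CPM scale, and the part of this in the medians was not tested. At the median, genes with a mean response above 0.1 had a smaller one in LRT, and so had genes with a mean response below −0.5. In the 198 genes with a mean response above 3 on the log2 scale the median interaction was −0.51, with median responses of 3.70 in HRT and 3.26 in LRT, or 13.0-fold and 9.61-fold. It was −0.36 in the 469 genes between 2 and 3, −0.21 in the 1712 genes between 1 and 2, and −0.12 in the 1786 genes between 0.5 and 1. In the 2401 genes between −0.1 and 0.1 it was −0.04. In the largest group, the 5206 genes between −0.5 and −0.1, it was only 0.018, and −0.001 without LRT overload replicate 5. It was 0.13 in the 1890 genes between −1 and −0.5, and 0.29 in the 307 genes below −1, where the medians were 0.391 of control in HRT and 0.485 in LRT. Of the genes above 3, 81.3% had a negative interaction, and of those below −1 only 18.2% did.

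No gene with a mean response above 1 passed the test, and each of the 8 had a mean response between −1.10 and 0.999. Above 3, only 14 of the 198 genes (7.07%) had an unadjusted p under 0.05, and all 14 were lower in LRT. Between −0.1 and 0.1 it was 386 of 2401 genes (16.1%), 261 lower and 125 higher.

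These medians kept their signs in the 3 groups above 1 and the 2 below −0.5 in all settings and with any single library left out, but their size followed single libraries. Above 3 the median was widest without LRT overload replicate 2, at −0.68, and narrowest without HRT overload replicate 1, at −0.34. Over all 2379 genes with a mean response above 1 it was −0.25, with −0.34 as the widest value (LRT overload replicate 2 left out) and −0.16 as the narrowest (HRT overload replicate 6 left out). Over the 2197 genes below −0.5 it was 0.15, with 0.21 as the widest value (HRT overload replicate 3 left out) and 0.104 as the narrowest (HRT overload replicate 1 left out), and it was 0.04 with no filter on low counts.

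The libraries behind these medians overlapped. Over the 2379 genes above 1, the median response of each overloaded library against its line's controls was 1.83, 1.82, 1.23, 1.25, 1.45 and 1.97 in HRT replicates 1 to 6. It was 1.47, 1.74, 1.27, 1.41, 1.06 and 1.40 in LRT replicates 1 to 6. HRT replicates 1, 2 and 6 lay above every LRT library, and HRT replicates 3, 4 and 5 lay within the LRT range. Over the 2197 genes below −0.5 HRT replicates 1, 2 and 6 had again the largest responses, at −1.02, −0.94 and −0.98, and the LRT libraries ran from −0.87 to −0.44. The higher medians of HRT thus rested on 3 of its 6 overloaded libraries. In these 3 the 10 most abundant genes held 25.1, 25.3 and 24.5% of counts. That share was 28.9, 29.7 and 26.9% in HRT replicates 3, 4 and 5, and 26.9 to 30.3% in LRT overload. Whether this composition is linked to the medians was not tested.

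**Figure D4:**
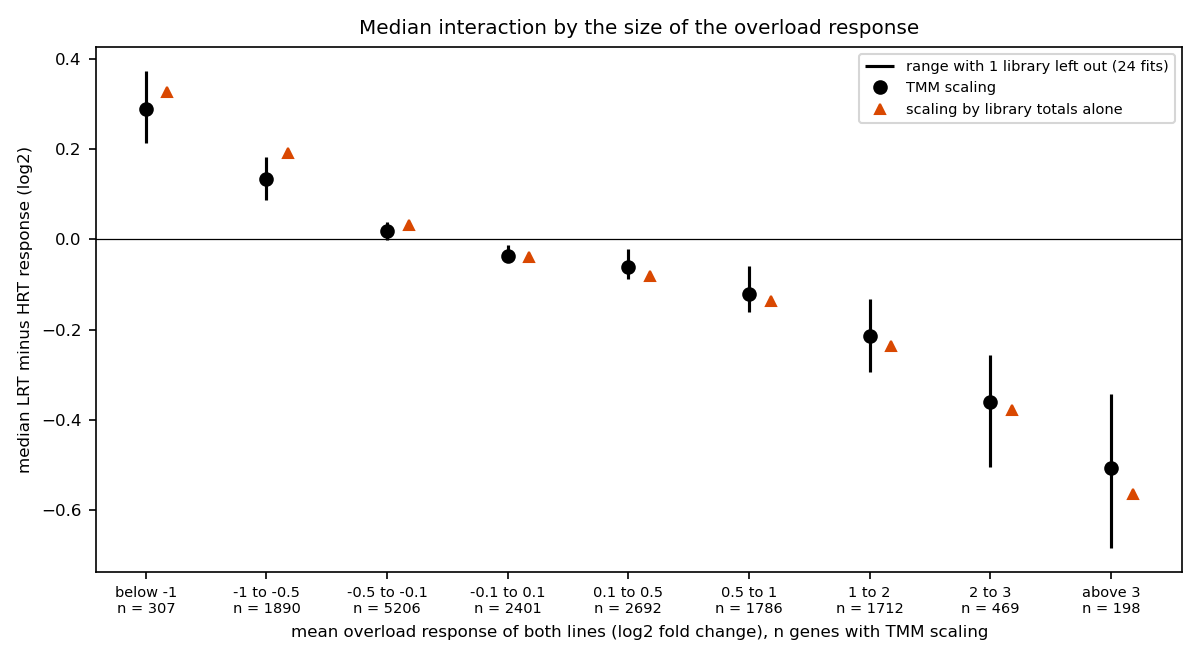
Median interaction (vertical, log2) of genes grouped by the mean overload response of both lines (horizontal, log2 fold change), with the range over 24 fits that leave out 1 library (bars) and the value under scaling by library totals alone (triangles). The medians fall from 0.29 in genes below −1 to −0.51 in genes above 3, and the bars are widest for the strongest risers.

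The spread between libraries differed between the groups. In the 12463 tested genes with a mean of at least 1 on the log2 CPM scale, the median SD between libraries of a group was 0.131 in HRT control, 0.209 in HRT overload, 0.159 in LRT control and 0.177 in LRT overload. The spread was larger after overload than in control for 72.3% of these genes in HRT and 55.1% in LRT. Among the 1368 of them with a mean response above 2-fold, the median SD after overload was 0.401 in HRT and 0.337 in LRT. In the 8 genes it was 0.156 in HRT overload and 0.2 in LRT overload, and HRT overload spread more than control in 4 of the 8. Choosing genes by a small interaction p favours a small spread, so these values describe the 8 genes without testing anything further. A limma-voom fit that weights libraries by treatment called ENSRNOG00000015225 alone.

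The standard error of the interaction had a median of 0.185 over all genes. It was 0.451 in the 2656 genes below 0 on the log2 CPM scale, 0.26 between 0 and 2, 0.158 between 2 and 4, 0.123 between 4 and 6, 0.132 between 6 and 8 and 0.188 above 8. A difference of 2 standard errors was thus a 1.87-fold difference in the least abundant genes and a 1.19-fold difference at 4 to 6. The 8 genes all lay above 0, with 2, 2, 3 and 1 of them in the 4 groups between 0 and 8. An interaction larger than 2-fold was fitted for 471 genes, of which 254 had an unadjusted p under 0.05 and 3 passed the threshold. Their median level was 0.621 CPM, against 8.48 CPM over all genes.

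**Figure D5:**
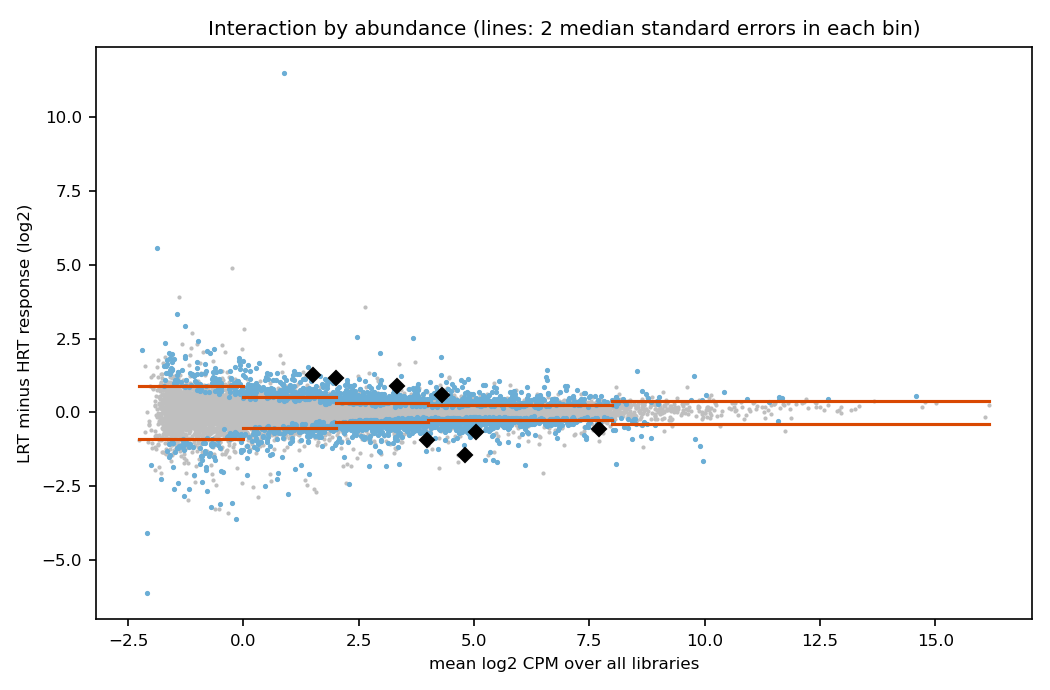
Interaction (vertical, log2) against mean log2 CPM over all libraries (horizontal) for the 16661 tested genes. Blue points have an unadjusted p under 0.05, black diamonds are the 8 genes, and orange lines mark 2 median standard errors in each abundance group. The lines are farthest apart below 0 and closest together between 4 and 6.

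Among the 100 most abundant genes of control muscle the interaction was above 0 for 82 and below 0 for 18, with a median of 0.18. Over all tested genes 46.5% were above 0. At an unadjusted p under 0.05 there were 11 higher and 1 lower of these 100, beside the 5.79% and 7.8% of all tested genes given above, and 0 passed (smallest edgeR adjusted p = 0.104).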

How the data were processed

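Plantaris RNA of 24 samples was sequenced from TruSeq libraries, per the labels' protocols. The deposited table holds estimated counts per Ensembl gene, with no scaling. The submitters' processing notes list Salmon (version 0.9.1), Rnor_6.0 and rn6, without saying what each served for. Annotation and settings: not given in the sources used here. Since estimated counts divide ambiguous reads, values of near-identical genes are uncertain.

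Groups came from the sample titles. Rounded counts passed edgeR's filterByExpr (at least 10 in enough libraries, 15 in total), which kept 16661 genes with 99.95% of reads. Scaling was by TMM (trimmed mean of M values) in edgeR 4.0.16 under R 4.3.3. A quasi-likelihood model with 1 coefficient per group and robust dispersion was fitted to all libraries, and each contrast was adjusted by Benjamini-Hochberg. A standard error here is the size of the log2 fold change divided by the root of F. Responses of single libraries are log2 CPM (prior count 2) minus the mean of the line's controls. The fits were tested on simulated data in which all groups shared the same dispersion for a gene. That run does not cover the unequal spread of the groups given above. Of 60 pairs within groups none agreed within sampling noise (lowest chi-square per degree of freedom 13.93).

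Alternatives were the DESeq2 1.42.0 Wald test, DESeq2's size factors within edgeR, limma-voom (limma 3.58.1) with and without weights by treatment, library totals alone, a looser filter that drops empty genes only, a tighter one (1 CPM in 6 libraries, mean count 50), no robust estimation, RIN as a covariate, a block for replicate number, both of these together, counts not rounded, and each library left out. The groups by mean response were added after seeing the data. The comparison and the gene lists were chosen with earlier results of these data known. As the IDs have no names, the rule for named genes took the 2 called genes of smallest p in each direction, and the gene lists were not used. Plots were drawn with matplotlib 3.10.9.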

Additional observations from a re-analysis of the deposited data

Results flagged for a closer look

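The overload responses of the lines differed, by the edgeR interaction test, for 8 genes. The LRT minus HRT differences on the log2 scale were −0.94 for ENSRNOG00000015225, −1.46 for ENSRNOG00000013018, 0.61 for ENSRNOG00000001544 and 1.27 for ENSRNOG00000027061. For the other 4 genes they were −0.56, −0.65, 1.16 and 0.88.

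A search for single libraries far from the rest of their group covered the 8 genes in each of 4 groups and the median responses of each line, 36 groups in all, and found 1. ENSRNOG00000027061 was at 1.19 CPM in LRT control replicate 3, with a gap to the next library of 0.744 of the whole range (critical value 0.625). Chance alone marks about 1 in 20 such groups.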

How the results depend on the processing

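The interaction gave 8 genes in the main fit. It gave 137 with DESeq2, 2 with limma-voom, 1 with limma-voom weighted by treatment, 1 with DESeq2's size factors in edgeR, 5 without a filter, 5 without robust estimation and 2 with RIN as a covariate. With the replicate number as a block it gave 1, also with RIN added. Library totals alone gave 6 (5 lower, 1 higher), the stricter filter 12 and unrounded counts 8. Leave-one-out fits gave 1 to 25. The cause of these shifts was not tested. The 4 contrasts beside the interaction had these counts: overload in HRT 10523 and in LRT 9524, neither moved over 1.5 times; the line difference in control 328, with 619 (DESeq2), 808 (weights by treatment), 206 (no filter) and 154 to 495 (leave-one-out); and the line difference after overload 514, with 1093 (DESeq2), 137 (weights by treatment), 2153 (library totals alone), 307 (no filter), 785 (RIN), 289 (replicate block with RIN) and 171 to 1647 (leave-one-out). Library totals alone also moved the balance of higher and lower genes: 7942 and 2238 against 5319 and 5204 for overload in HRT, 6765 and 1893 against 4808 and 4716 in LRT, 76 and 186 against 203 and 125 for the lines in control, and 225 and 1928 against 266 and 248 after overload. RIN as a covariate turned the order of the 2 overload counts, to 8712 in HRT and 9130 in LRT, but RIN and overload can hardly be told apart in HRT. With the replicate block added to RIN they were 7230 and 8356. The median interaction of genes with a mean response above 1, and of those below −0.5, kept its sign in all settings. It was 0.04 for those below −0.5 without a filter. Over all 36 pairs of same-numbered libraries from different groups the mean correlation was 0.04 (range −0.19 to 0.50), with 7 pairs above 0.1. Of 72 best matches 14 had the same number. These pairs mix libraries of different lines, which cannot share an animal, with control and overload libraries of 1 line. Whether the latter deviate together was therefore not tested. As the labels do not tie equal numbers to 1 animal, the block rests on a number alone. The planned tests of gene lists were not run, as no ID could be paired with a name.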

Other observations

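The widest fitted interaction of all tested genes belonged to a gene that was on or off by library, and was looked at after its values were seen. It had 0 counts in all 6 HRT overload libraries and reads in all 6 HRT control libraries, at 93, 60, 57, 340, 60 and 16 counts. In LRT it had 146 counts in 1 control library and 290 and 216 counts in 2 overload libraries, and 0 in the other 9. Its interaction had an unadjusted p of 0.00502 and an edgeR adjusted p of 0.203, and no fold is given because HRT overload was at 0.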
